A study of Mus musculus with 62 samples.

Results

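CUT&Tag signal was examined at 8 genes of the T lineage in mouse HSPCs after loss of the H3.3 chaperone Daxx: Notch1, Tcf7, Lef1, Bcl11b, Tox, Cd3g, Cd3d and Cd3e. The members were the sites, in 14 tables of regions that the authors called different between genotypes, that overlapped the body of one of these genes or the 20000 bp on either side of it (mm10, GENCODE M21). This gave 873 sites of the 1743368 listed. Of the 62 libraries of the series, 54 entered these tables.

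HSPCs were Lin-/c-Kit+ bone-marrow cells of C57BL/6 mice, enriched with magnetic beads. WT mice were Daxx +/+, Daxx-KO mice were Daxx F/F with exons 2 to 7 floxed, and double-knockout (DKO) mice were Daxx F/F Pu.1 F/F. All carried Cre +/-, which was Mx1Cre, an interferon-inducible Cre that is not restricted to blood cells, and pI:pC was given to induce it, so that WT cells had met both as well. Ages are not given in the labels. Time is in weeks post induction (w.p.i.). At 3 w.p.i. the antibodies were H3.3, Pu.1, H3K27ac and H3K9me3, at 8 w.p.i. H3K9me3 and H3K27me3, and at 24 w.p.i. all 5. There were 2 libraries per group at 3 and 24 w.p.i. and 3 at 8 w.p.i. At 8 w.p.i. H3K9me3 was compared between all 3 genotypes, and H3K27me3 between DKO and each of the others. Comparisons of one antibody at that time share libraries. A further table at 8 w.p.i., for H3K27me3 with Daxx-KO set against WT, names H3K9me3 libraries as its controls and was not used here. By the animal numbers in the labels, each animal at 8 and 24 w.p.i. gave the libraries of every antibody of that time. At 3 w.p.i. H3.3 and Pu.1 shared their numbered animals, as did H3K27ac and H3K9me3, but the Daxx-KO animals of these pairs differed, and WT replicate 1 of H3.3 and Pu.1 had no number.

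Early progenitors enter the T lineage in the thymus, where ligands on stromal cells activate the receptor Notch1. Notch signalling induces Tcf7, the gene of the HMG-box factor TCF-1, and then Gata3 and Bcl11b, the zinc-finger factor that seals commitment to T cells. Lef1 is the close relative of TCF-1, Tox is an HMG-box factor of developing and chronically stimulated T cells, and CD3 gamma, delta and epsilon are the signalling chains of the T-cell receptor. In HSPCs these genes other than Notch1 are mostly silent or weakly expressed. H3K27ac marks active promoters and enhancers, H3K27me3 is deposited by Polycomb complexes, H3K9me3 marks heterochromatin and repeats, and Pu.1 is a myeloid and B-lineage factor whose level falls as T cells are specified.

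The value of a site in a library is its normalized count, the number of reads divided by a constant that the authors set for the library. The tables list a site only if it passed the authors' test. Where a gene has no site, its signal is unknown, and counts of higher and lower sites below are descriptions without a further test. Exact permutation of the libraries cannot go below 0.333 for 2 against 2 or 0.1 for 3 against 3, so that no p is given for a site. In such bulk profiles, fewer cells carrying a mark and less of the mark in each cell cannot be told apart. A log2 ratio is that of the average in the mutant to the average in the control.

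The mean number of reads per 600-bp window, the measure of depth in the file headers, was between 1.21 and 33.78 in the 3 w.p.i. libraries, 0.2 and 3.29 in those of 8 w.p.i., and 3.97 and 10.3 in those of 24 w.p.i. The H3.3 and Pu.1 libraries of WT replicate 1 at 3 w.p.i. stood apart. Their means were 22.88 and 33.78 with an SD across windows of 0.834 and 0.8 times the mean, against 1.235 to 1.484 times in the other 6 libraries of these tables, while WT replicate 2 was shallow at 3.06 and 2.75. At Daxx itself, Pu.1 inside the floxed exons at chr17:33912801-33913750 was 0 in both Daxx-KO libraries and 63.33 and 44.21 in WT at 24 w.p.i. H3K27ac at a site that reaches over exons 2 to 6 was 113.15 and 93.68 in Daxx-KO against 857.89 and 367.84 in WT at 24 w.p.i.

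Sequences of the regions to which the results return are printed in lower case. Promoters are shown for Notch1, where H3.3 and Pu.1 sites covered it, and for the divergent pair Cd3g and Cd3d, covered by H3K27ac sites, as 250 bases upstream of the RefSeq start on GRCm38.p6 (mm10), in the direction of the gene. Capitals mark GAGGAA or its reverse complement TTCCTC, the purine-rich core of many Pu.1 sites, searched on both strands. This word is in 7639 of 32851 RefSeq promoters of the same length (23.3%). The longer word GAGGAAGT, which contains it, is in 802 promoters (2.44%) and in none of the sequences below. RefSeq held 7 of the 8 genes, and Tox had no entry.
Notch1 promoter, chr2:26503823-26504072, minus strand: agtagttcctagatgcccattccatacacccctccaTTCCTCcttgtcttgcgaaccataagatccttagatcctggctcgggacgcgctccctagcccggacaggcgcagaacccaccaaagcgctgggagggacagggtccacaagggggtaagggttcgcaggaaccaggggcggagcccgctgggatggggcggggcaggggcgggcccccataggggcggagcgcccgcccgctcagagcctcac
Cd3g promoter, chr9:44980432-44980681, minus strand: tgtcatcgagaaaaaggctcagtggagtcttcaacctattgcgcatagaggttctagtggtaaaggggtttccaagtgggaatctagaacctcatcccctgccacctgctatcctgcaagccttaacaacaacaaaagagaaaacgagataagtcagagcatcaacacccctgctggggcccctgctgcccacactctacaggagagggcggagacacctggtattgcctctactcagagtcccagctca
Cd3d promoter, chr9:44981536-44981785, plus strand: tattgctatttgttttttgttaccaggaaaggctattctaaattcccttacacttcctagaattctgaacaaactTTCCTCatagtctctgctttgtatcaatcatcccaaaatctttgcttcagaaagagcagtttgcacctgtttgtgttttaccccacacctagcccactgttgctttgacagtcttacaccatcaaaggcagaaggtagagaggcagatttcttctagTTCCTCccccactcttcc
The Notch1 promoter had 66% GC, 16 CpG dinucleotides and 1 match, and lies inside the gene as GENCODE draws it, 12841 bp from the most upstream start. Promoters of Cd3g and Cd3d, which face away from each other, had 4 and 0 CpG and 0 and 2 matches. The promoters of Tcf7 and Cd3e also lay inside a Pu.1 site, held 1 match each and are not printed. A match is a description of the letters and not a bound site.

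The middle 200 bases of 3 sites, on the plus strand, are printed for the regions to which the values below return: the Notch1 stretch with the highest H3K27ac, the Tcf7 intronic stretch with lower H3K27ac at both times, and the last coding exon of Bcl11b with its changing H3K9me3. None held GAGGAA.
Notch1 H3K27ac, chr2:26476851-26477050: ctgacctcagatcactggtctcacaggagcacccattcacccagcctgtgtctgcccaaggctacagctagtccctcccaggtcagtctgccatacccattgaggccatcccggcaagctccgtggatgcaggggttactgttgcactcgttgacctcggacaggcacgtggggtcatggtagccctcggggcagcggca
Tcf7 H3K27ac, chr11:52281526-52281725: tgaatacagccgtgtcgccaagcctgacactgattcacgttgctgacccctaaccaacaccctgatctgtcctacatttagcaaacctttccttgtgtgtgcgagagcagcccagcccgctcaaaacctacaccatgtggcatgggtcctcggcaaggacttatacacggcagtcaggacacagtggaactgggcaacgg
Bcl11b H3K9me3, chr12:107916876-107917075: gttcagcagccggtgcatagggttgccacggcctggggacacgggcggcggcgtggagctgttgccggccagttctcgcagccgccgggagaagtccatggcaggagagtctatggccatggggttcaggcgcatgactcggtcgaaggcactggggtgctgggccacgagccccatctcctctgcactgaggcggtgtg
The Bcl11b stretch had 67.5% GC and 15 CpG and is coding over all 200 bases. The Notch1 stretch had 61.5% GC with 104 coding bases, and the Tcf7 stretch, in the intron after the first coding exon, had 54.5% GC.

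Over all 8 genes, most shares of higher sites lay near the background, which is the share over all sites of the same table. At 3 w.p.i. H3K27ac was higher in Daxx-KO at 15 of 53 sites at these genes (28.3%, Wilson 95% interval of counting error 17.97 to 41.57), an interval that includes the background of 41.5%. H3.3 was higher at 51 of 86 sites (59.3%, background 59.4%), Pu.1 at 57 of 94 (60.6%, background 56.0%) and H3K9me3 at 8 of 10 (80.0%, background 78.9%), shares near those of the tables. At 24 w.p.i. the shares were 63 of 114 for H3.3 (55.3%, background 52.6%), 61 of 120 for Pu.1 (50.8%, background 48.2%), 55 of 134 for H3K27ac (41%, background 42.5%), 36 of 58 for H3K9me3 (62.1%, Wilson interval 49.2 to 73.44, which does not include the background of 48.1%) and 46 of 109 for H3K27me3 (42.2%, background 41.2%).

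Some single genes departed from these totals, in opposite directions. The same backgrounds apply to the counts of single genes below, several of which lie near them. The libraries of the 2 groups did not overlap at 759 of 778 sites at 3 and 24 w.p.i. (97.6%), where 98.0% of all listed sites had this property, and at 88 of 95 sites at 8 w.p.i. (92.6%, background 81.2%). Sites lay in gene bodies in 613 cases and within 1000 bp of an annotated start of a member in 75. Other genes reach into the windows: for 121 sites the nearest coding start was that of Hadh (58), Skp1a (24), Sec16a (23), Ube4a (12) or Mpzl2 (4).

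**Figure D1:**
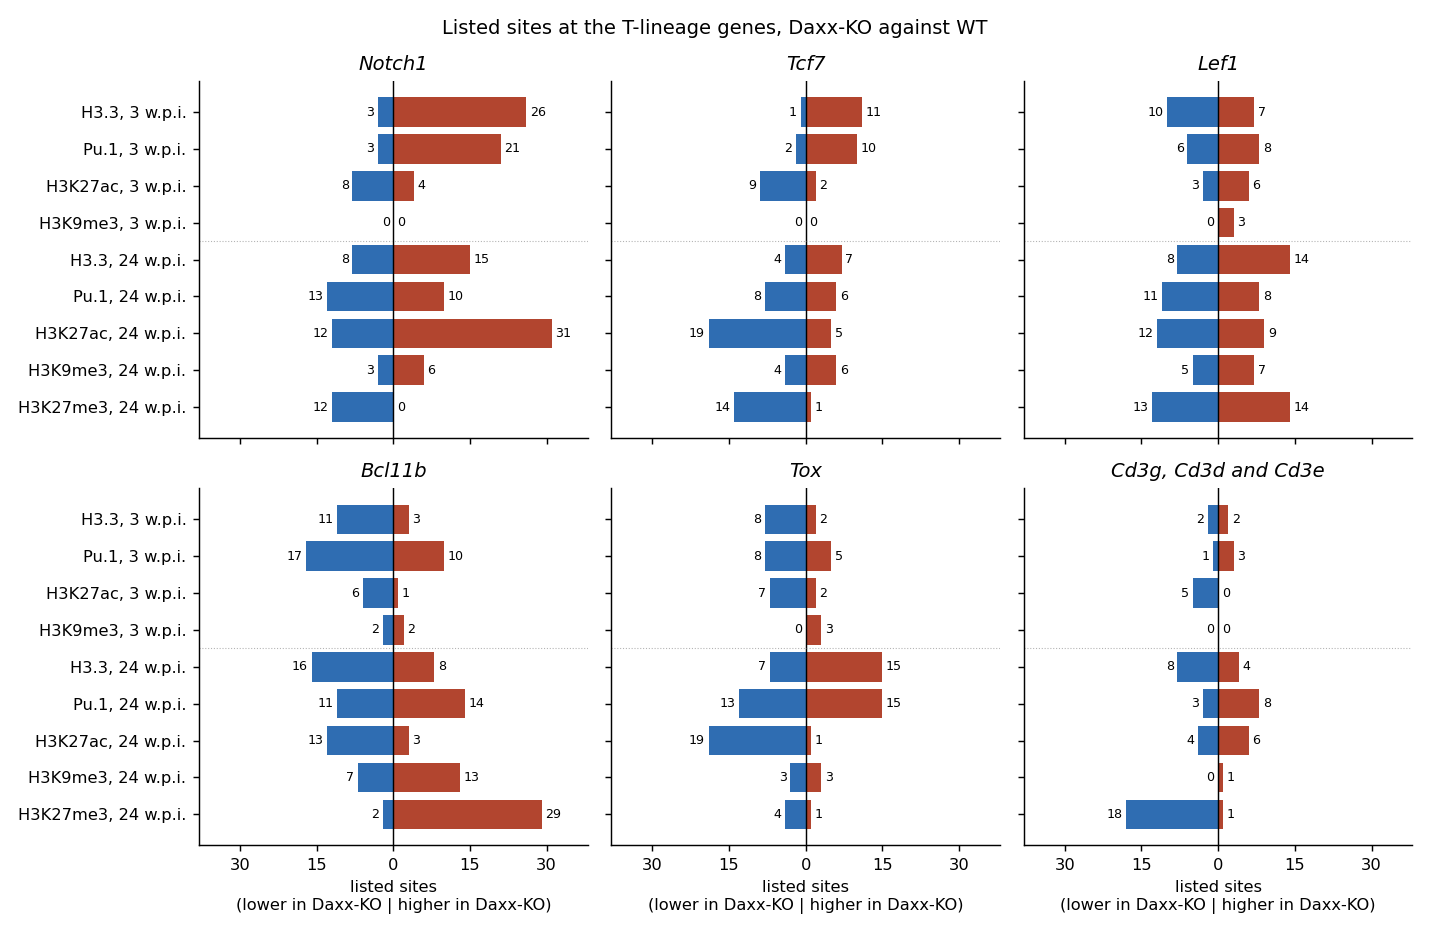
Number of listed sites per gene, antibody and time, with sites higher in Daxx-KO to the right of 0 and lower sites to the left. Notch1 had 31 higher and 12 lower H3K27ac sites and 0 higher and 12 lower H3K27me3 sites at 24 w.p.i., and Bcl11b 3 and 13 for H3K27ac and 29 and 2 for H3K27me3.

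Notch1, the receptor that starts the T programme and also acts in early progenitors, had the most listed H3K27ac sequence of the members. At 24 w.p.i. 31 of its 43 H3K27ac sites, covering 41.2 kb in all, were higher in Daxx-KO, and all 12 H3K27me3 sites were lower. The site with the highest count, chr2:26474551-26479350 over coding exons, had 6949.85 and 6552.9 normalized counts in Daxx-KO against 3418.15 and 3534.47 in WT, a log2 ratio of 0.96. Both Daxx-KO libraries were above both WT libraries by a gap several times the spread within either group. At chr2:26482751-26484200, in an intron, the Daxx-KO values of 3741.31 and 2956.63 were above the WT values of 2172.65 and 2619.21 by a narrower margin (0.48). Upstream of the gene, at chr2:26533351-26535500, H3K27ac was 2645.07 and 2961.03 in Daxx-KO against 1789.5 and 1494.32 in WT (0.77). Over the 31 higher sites the log2 ratio ran from 0.34 to 2.05, and 6 of them were nearer to the start of Sec16a, including chr2:26444351-26445450 with 1872.53 and 1544.18 against 1088.0 and 803.72.

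H3K27me3 at Notch1 went the other way, at lower counts. Just upstream of the most distal start, at chr2:26516701-26517900, it was 8.77 and 23 in Daxx-KO against 130.7 and 58.54 in WT (-2.57). Over the intron named above, the H3K27me3 site chr2:26482551-26484150 had 54.24 and 47.84 in Daxx-KO against 216.6 and 151.35 in WT (-1.85), so that higher acetylation and lower trimethylation of the same residue were recorded over the same bases. Over the 12 sites the ratio ran from -2.91 to -0.86. The Sec16a end had one of them, chr2:26444401-26446200, with 160.34 and 158.23 against 296.88 and 282.71.

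At 3 w.p.i. Notch1 was also the gene with most H3.3 and Pu.1 sites in the upward direction: 26 of 29 for H3.3 (median log2 ratio 1.49) and 21 of 24 for Pu.1 (1.4). H3.3 across the RefSeq promoter printed above, at chr2:26503101-26504450, was 140.56 and 137.8 in Daxx-KO against 50.48 and 23.57 in WT (1.91). Further into the gene, at chr2:26469551-26471850, H3.3 was 337.18 and 358.14 against 185.81 and 154.54 (1.03). Pu.1 at chr2:26468701-26471500, which overlaps that site, was 375.72 and 386.67 in Daxx-KO against 170.27 and 51.14 in WT (1.78). The lower WT value here comes from the shallow replicate 2. With WT replicate 1, the library that stands apart, left out, the counts at Notch1 stayed 26 of 29 and 21 of 24. The groups overlapped at 1 of these H3.3 sites and at 0 of the Pu.1 sites. The counts could therefore hardly change, and this is no sign of stability. The median GC of the 29 H3.3 sites was 53.7%, and in the whole table higher sites had a median GC of 50.6% and lower sites of 46.9%. The part of GC content and of the WT library in these shares was not tested.

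H3K27ac at the RefSeq start of Notch1 was low and lower in Daxx-KO at 3 w.p.i.: 5.81 and 1.7 against 19.34 and 50.75 at chr2:26504001-26504650 (-3.22). A site further upstream, chr2:26507351-26508300, had 33.91 and 43.33 in Daxx-KO against 3.22 and 12.14 in WT (2.33). Of all 12 Notch1 sites for H3K27ac at 3 w.p.i., 4 were higher. At 24 w.p.i. Pu.1 at the promoter, chr2:26503651-26504250, was 12.27 and 0 in Daxx-KO against 28.79 and 78.94 in WT (-3.13), and Pu.1 was higher at 10 of 23 sites of the gene. H3.3 at 24 w.p.i. was higher at 15 of 23, with 229.63 and 194.67 in Daxx-KO against 18.45 and 40.42 in WT at chr2:26529851-26531300, upstream (2.85).

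H3K9me3 at Notch1 was sparse, with no listed site at 3 w.p.i. In the coding exons around chr2:26470001-26470650 it was 0, 0.92 and 0 in Daxx-KO against 4.74, 8.44 and 7.49 in WT at 8 w.p.i. (-4.49), the only Notch1 site in that table. The overlapping site at 24 w.p.i., chr2:26470151-26471000, had 35.7 and 85.46 in Daxx-KO against 0 and 6.56 in WT (4.21). Its neighbour chr2:26467701-26469100 had 67.58 and 156.34 against 27.98 and 4.69 (2.78). At 24 w.p.i. 6 of 9 Notch1 sites were higher in Daxx-KO.

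**Figure D2:**
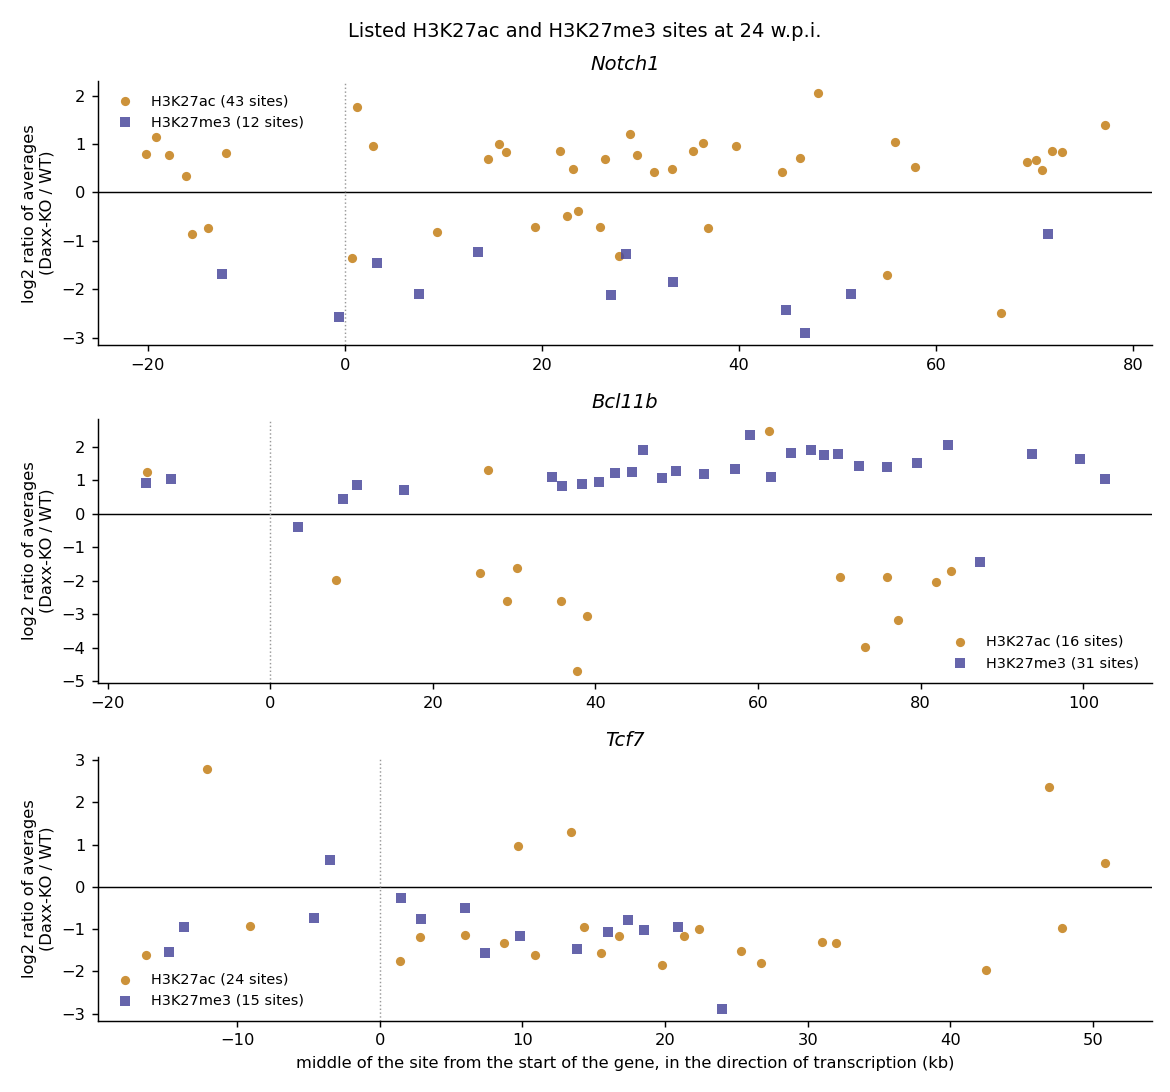
Log2 ratio of the Daxx-KO to the WT average at each listed site at 24 w.p.i. against the distance of its middle from the start of the gene (kb, positive in the direction of transcription), circles for H3K27ac and squares for H3K27me3. At Notch1 the 12 squares lie below 0, at Bcl11b 29 of 31 lie above 0, and at Tcf7 most of both kinds lie below 0.

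Tcf7 encodes the first T-lineage factor that Notch induces. Its H3K27ac was mostly lower in Daxx-KO at both times, whereas that of Notch1 was mostly lower at 3 w.p.i. and mostly higher at 24 w.p.i. At 3 w.p.i. 9 of 11 Tcf7 sites were lower (18.2% higher, background 41.5%). At 24 w.p.i. it was 19 of 24 (20.8% higher, background 42.5%). In the intron after the first coding exon, chr11:52280701-52282200 had 3.88 and 0.85 normalized counts in Daxx-KO against 36.54 and 31.99 in WT at 3 w.p.i. (-3.86). At 24 w.p.i. the overlapping site chr11:52281051-52282250 had 26.98 and 67.33 in Daxx-KO against 126.23 and 191.44 in WT (-1.75). Daxx-KO libraries were below the WT libraries at both times, and the sequence common to both sites is the Tcf7 stretch printed above. A second intronic site further in, chr11:52274401-52276400, had 27.13 and 0 against 81.67 and 63.99 at 3 w.p.i. (-2.42), and chr11:52273651-52274950 had 69.69 and 80.5 against 207.77 and 170.08 at 24 w.p.i. (-1.33).

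The highest H3K27ac counts in the Tcf7 window belong to the start of the neighbouring gene Skp1a, an SCF ubiquitin ligase subunit, where Daxx-KO had 2050.86 and 1715.43 and WT 1156.14 and 1385.94 at 24 w.p.i. (0.57). Skp1a thus went against the direction at Tcf7 itself. H3K27me3 at 24 w.p.i. was lower at 14 of 15 sites, so that at Tcf7 both marks were mostly lower. At chr11:52275051-52276250 H3K27me3 was 55.04 and 88.32 in Daxx-KO against 214.73 and 209.89 in WT (-1.57). The site with the highest H3K27me3, chr11:52281101-52281850, had 922.93 and 959.51 against 880.38 and 1376.43 (-0.26). Here the groups overlapped, and without WT replicate 2 the ratio turned to 0.096. The exception that was higher lay upstream at chr11:52286201-52286800, with 160.34 and 212.51 against 111.1 and 127.08 (0.65).

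H3.3 and Pu.1 at Tcf7 at 3 w.p.i. resembled Notch1, with 11 of 12 and 10 of 12 sites higher in Daxx-KO. The groups overlapped at 0 of these sites, so that leaving out WT replicate 1 could not change the counts. Median GC was 53.8% and 53.5%, and the part of GC content and of that library was not tested here either. Pu.1 over the start of Tcf7, chr11:52282801-52283600, was 55.14 and 104.57 in Daxx-KO against 15.15 and 0 in WT (3.40). Within the gene, chr11:52273901-52276050 had 315.07 and 247.24 against 122.74 and 70.32 (1.54), and H3.3 at chr11:52259801-52261000 was 101.86 and 206.34 against 51.89 and 26.19 (1.98). At 24 w.p.i. the intronic Pu.1 site was reversed: chr11:52274951-52276000 had 0 and 10.45 in Daxx-KO against 94.99 and 92.62 in WT (-4.17). Pu.1 was then higher at 6 of 14 sites and H3.3 at 7 of 11, the latter led by chr11:52295551-52296900 upstream with 126.96 and 131.29 against 11.07 and 30.08 (2.65).

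H3K9me3 at the start of Tcf7 at 24 w.p.i. split into overlapping sites of opposite direction. Over the start, chr11:52282601-52283450 had 36.98 and 71.92 in Daxx-KO and 0 in both WT libraries. Just inside the gene, chr11:52282001-52282750 had 0 and 1.04 in Daxx-KO against 52.85 and 24.36 in WT (-6.21). In all, 6 of 10 Tcf7 sites were higher, and no H3K9me3 site was listed there at 3 or 8 w.p.i.

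**Figure D3:**
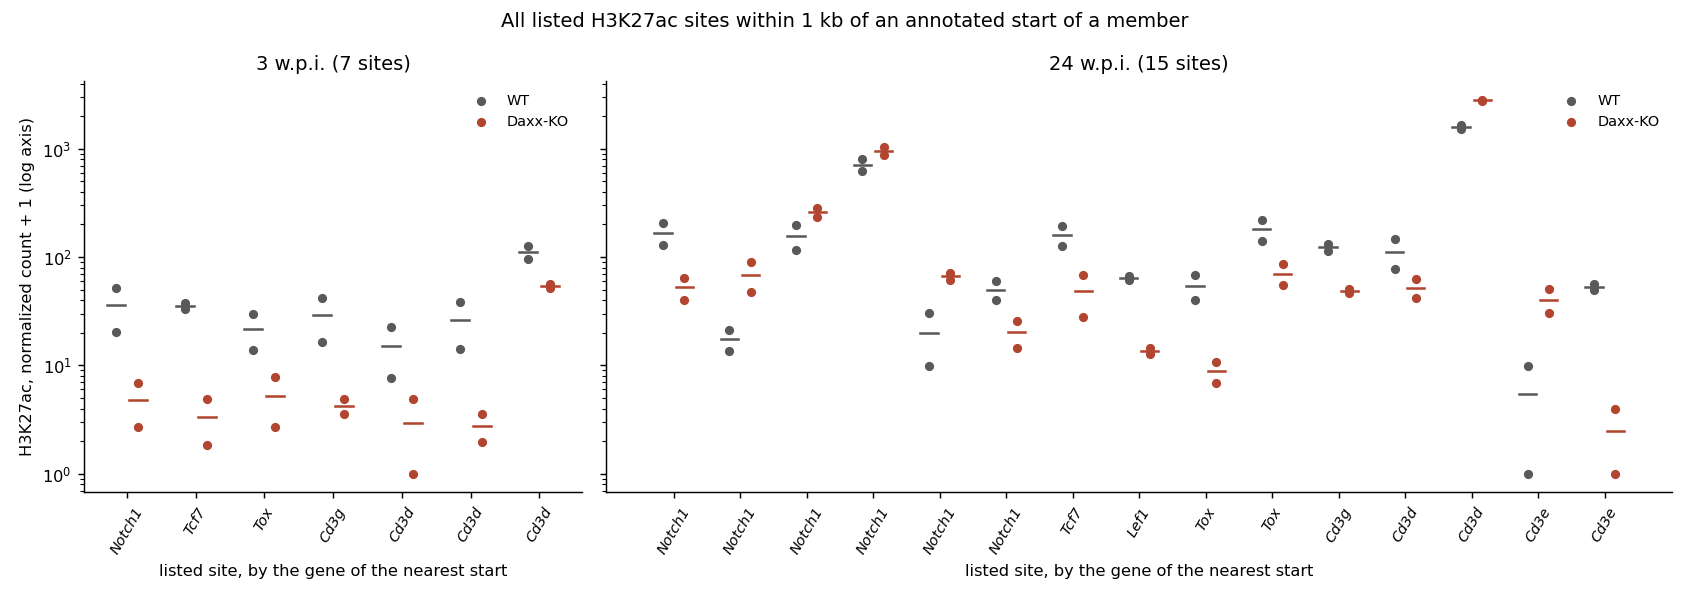
Normalized H3K27ac counts plus 1, on a log axis, at every listed site within 1000 bp of an annotated start of a member, alternative starts included, with one point per library and a line at the group average. All 7 sites at 3 w.p.i. were lower in Daxx-KO (background 41.5% higher), and several of them are neighbours in the Cd3 cluster. At 24 w.p.i. 9 of 15 were lower and 6 higher, the latter at Notch1, Cd3d and Cd3e, which is near the background of 42.5% higher.

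Cd3g, Cd3d and Cd3e are neighbours whose windows overlap, so that their sites were counted once. At 3 w.p.i. all 5 H3K27ac sites of the cluster were lower in Daxx-KO, where 41.5% of the sites of the table were higher. Over the start of Cd3g, chr9:44979851-44981050 had 3.88 and 2.55 in Daxx-KO against 40.83 and 15.45 in WT (-3.13). The Cd3d start, chr9:44981451-44982150, had 3.88 and 0 against 21.49 and 6.62 (-2.86). These are the stretches whose promoters are printed above, and counts were low in all libraries. At 24 w.p.i. the Cd3g start, chr9:44979901-44981100, was again lower, with 49.45 and 45.37 against 113.94 and 129.73 (-1.36). In Cd3e, chr9:45003051-45004050 had 3.0 and 0 against 55.85 and 49.05 (-5.13), whereas chr9:45001651-45002350, next to another annotated start of the gene, had 49.45 and 29.27 against 8.94 and 0 (3.14).

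The end of Cd3d went from lower to higher between the times. At chr9:44986601-44987300, H3K27ac was 55.23 and 50.97 in Daxx-KO against 95.64 and 124.67 in WT at 3 w.p.i. (-1.05). At 24 w.p.i. chr9:44985751-44987600, which contains it, had 2833.14 and 2744.4 against 1508.01 and 1653.32 (0.82), the highest acetylation of the cluster. In total 6 of 10 sites were higher at 24 w.p.i., of which 2 were nearer to the start of Ube4a, a ubiquitin chain elongation factor.

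H3K27me3 at the cluster at 24 w.p.i. was lower at 18 of 19 sites, with log2 ratios from -2.02 to -0.61. The site with the highest WT average, chr9:45007151-45008750 in Cd3e, had 109.28 and 91.99 in Daxx-KO against 247.4 and 314.12 in WT (-1.48). Upstream of Cd3e, chr9:45009701-45010700 had 45.47 and 42.32 against 100.83 and 97.09 (-1.17), and the Cd3d start, chr9:44981401-44982000, had 10.37 and 16.56 against 37.34 and 28.56 (-1.29). H3K27ac just inside Cd3d, chr9:44982101-44983250, was lower at 24 w.p.i. too, with 40.46 and 61.47 against 77.08 and 144.76 (-1.12), so that both marks were lower there.

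Pu.1 differed between the starts of the cluster at 24 w.p.i. At the Cd3d start, chr9:44981601-44982250, it was 0 in both Daxx-KO libraries and 164.08 and 33.68 in WT. At the Cd3e start, chr9:45009401-45010000, it was 69.52 and 112.83 in Daxx-KO against 12.95 and 11.58 in WT (2.89). Pu.1 was higher at 8 of 11 sites of the cluster at 24 w.p.i. and at 3 of 4 at 3 w.p.i. H3.3 at Cd3e had both directions. In the window of Cd3e, 2 of 2 sites were higher at 3 w.p.i. and 4 of 10 at 24 w.p.i. At 3 w.p.i. Daxx-KO had 60.8 and 85.48 against 18.23 and 15.72 in WT at chr9:45006201-45006850 (2.11). At 24 w.p.i. chr9:45005351-45006250 had 86.11 and 95.07 against 0.92 and 2.82 (5.60), and chr9:44998151-44999200 had 117.02 and 118.84 against 3.69 and 2.82 (5.18). Near an annotated start of Cd3e, in contrast, chr9:45001051-45002150 had 33.12 and 2.26 against 58.12 and 67.69 (-1.83). Over the whole cluster, H3.3 was higher at 2 of 4 sites at 3 w.p.i. and at 4 of 12 at 24 w.p.i., and 1 H3K9me3 site was listed, higher at 24 w.p.i.

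Tox had the longest gene body of the group, 305.2 kb, and at 24 w.p.i. 19 of its 20 H3K27ac sites were lower in Daxx-KO. Across its start, chr4:6990601-6991850 had 53.95 and 84.89 in Daxx-KO against 218.94 and 140.02 in WT (-1.37). Deep in the gene, chr4:6827551-6828700 had 8.99 and 8.78 against 78.19 and 91.76 (-3.26). The start was lower at 3 w.p.i. as well, with 6.78 and 1.7 against 12.89 and 28.68 at chr4:6991251-6991950 (-2.29), and 7 of 9 sites were lower then. H3K27me3 immediately upstream, chr4:6991601-6992200, was higher in Daxx-KO at 24 w.p.i., 288.77 and 170.19 against 135.37 and 142.78 (0.72). This overlap at the start of Tox, with less acetylation and more Polycomb mark, is the reverse of the Notch1 intron. The other 4 Tox H3K27me3 sites were lower.

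H3.3 at Tox was lower at 8 of 10 sites at 3 w.p.i., with 33.95 and 56.74 against 143.03 and 110.01 at chr4:6693501-6695250 near the end of the gene (-1.48). Around the start, chr4:6989651-6990750 was one of 2 exceptions, with 87.65 and 58.22 against 27.34 and 0 (2.42). The 10 sites had a median GC of 43.8%, against 53.7% at Notch1. Pu.1 was higher at 5 of 13 sites. At 24 w.p.i. the counts were 15 of 22 for H3.3 and 15 of 28 for Pu.1.

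H3K9me3 was higher in Daxx-KO in an intronic stretch of Tox that held all 3 sites at 3 w.p.i. and the 1 site at 8 w.p.i. The backgrounds were 78.9% and 65.2% higher, so that this direction was also the usual one over all sites. At 3 w.p.i. chr4:6849851-6850900, of which 100% is soft-masked as repeat in the reference, had 20.93 and 30 against 3.5 and 6.96 (2.28), and chr4:6848501-6849250 had 13.95 and 28.33 against 7.0 and 3.48 (2.01). At 8 w.p.i. chr4:6849101-6849850, which overlaps the latter, had 27.12, 12.87 and 24.06 in Daxx-KO against 10.27, 4.22 and 2.5 in WT (1.91). How reads that match several copies of a repeat were treated is not given in the sources used here. In DKO cells at 8 w.p.i. a nearby site, chr4:6852501-6853300, had 12.93, 41.44 and 13.03 against 0, 3.45 and 0 in WT (4.29, background 81.4% higher). The value of 41.44 came from the shallowest DKO library, with a mean of 0.21 reads per window, beside 0.67 and 3.28 in the others. The part of depth in this ratio was not tested. At 24 w.p.i. 3 of 6 Tox sites were higher, and none lay in this stretch.

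Bcl11b had the most listed H3K27me3 sequence of the members. At 24 w.p.i. 29 of 31 H3K27me3 sites, which with the other 2 cover 36.95 kb, were higher in Daxx-KO, and 13 of 16 H3K27ac sites were lower. The intronic site chr12:107985601-107988550 had 950.85 and 851.87 in Daxx-KO against 516.28 and 588.27 in WT (0.71). Further along, chr12:107948501-107952050 had 472.24 and 498.61 against 208.19 and 221.31 (1.18). The gap between the groups exceeded the spread within each at both sites, and the log2 ratios over the 29 sites ran from 0.44 to 2.34. An exception near the start, picked after its values were seen, was chr12:107999851-108000600 with 512.12 and 421.34 against 611.51 and 613.97 (-0.39).

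Sites of both marks overlapped along the gene. The H3K27me3 site chr12:107964051-107966550 had 402.04 and 408.46 in Daxx-KO against 225.93 and 209.89 in WT (0.90). Within it, H3K27ac at chr12:107964201-107965000 was 14.99 and 2.93 against 93.83 and 56.17 (-3.07), and at chr12:107965651-107966250 it was 2.25 and 2.93 against 100.53 and 34.02 (-4.70). The highest H3K27ac count in WT, at chr12:107977051-107978550, was 192.13 and 115.5, beside 40.46 and 49.77 in Daxx-KO (-1.77). At chr12:107929851-107931250 it was 183.19 and 121.03 in WT and 1.5 and 17.56 in Daxx-KO (-4.00). At 3 w.p.i. 6 of 7 H3K27ac sites were lower, none above 19.86 in any WT library.

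H3K9me3 at the last coding exon of Bcl11b differed in direction between the times. At 3 w.p.i. chr12:107916451-107918750 had 3.49 and 6.67 normalized counts in Daxx-KO against 59.5 and 57.98 in WT (-3.53). At 8 w.p.i. chr12:107916501-107917300, inside it, had 28.93, 74.49 and 32.08 in Daxx-KO against 18.17, 2.53 and 6.24 in WT (2.33). At 24 w.p.i. chr12:107916651-107917900 had 281.8 and 273.07 in Daxx-KO against 362.2 and 482.57 in WT (-0.61). The groups did not overlap at any of the 3 times. This held for 98.0% of all listed sites at 3 and 24 w.p.i. and 81.2% at 8 w.p.i., so that it lends no weight to the change. A second listed site in the exon, not independent of the first, had the same direction at each time. The next site in the exon at 8 w.p.i., chr12:107915301-107916100, did overlap, since 1 Daxx-KO library was at 5.35 beside 63.28 and 128.74, with 26.86, 15.18 and 12.49 in WT (1.86).

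**Figure D4:**
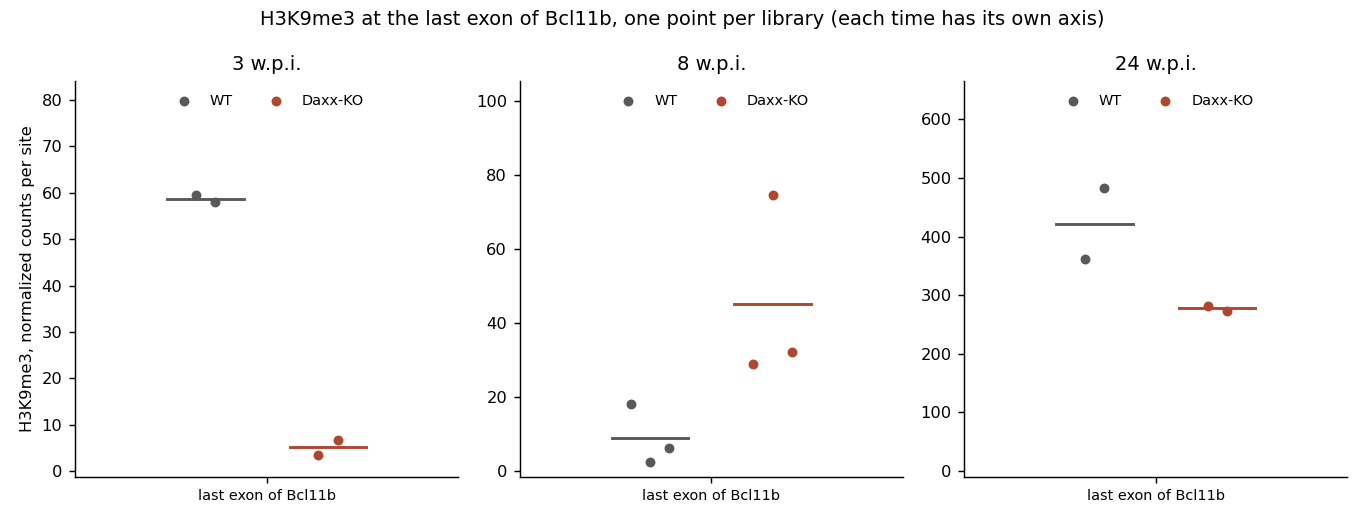
Normalized H3K9me3 counts at the last coding exon of Bcl11b, one point per library and a line at the group average, each time with its own linear axis. Daxx-KO lies below WT at 3 w.p.i. (3.49 and 6.67 against 59.5 and 57.98), above it at 8 w.p.i. and below it at 24 w.p.i. (281.8 and 273.07 against 362.2 and 482.57).

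Across and around Bcl11b, H3K9me3 was higher in Daxx-KO at all 17 listed sites at 8 w.p.i. (median log2 ratio 2.95), with Daxx-KO values from 5.35 to 128.74 and WT values from 0 to 26.86. These 17 made up nearly all of the member sites of that table, 18 of 19 of which were higher (94.7%, background 65.2%). At 3 w.p.i. 2 of 4 and at 24 w.p.i. 13 of 20 were higher. Near the start at 24 w.p.i., chr12:108004301-108005600 had 1.28 and 10.42 against 87.05 and 61.84 (-3.67), and in the intron before the last exon chr12:107918551-107919250 had 98.82 and 101.1 against 65.29 and 56.22 (0.72). Pu.1 over the last exon at 3 w.p.i., chr12:107915201-107917350, was 321.37 and 249.67 against 140.5 and 89.5 (1.31), although Pu.1 was higher at only 10 of 27 Bcl11b sites and H3.3 at 3 of 14. At 24 w.p.i. Pu.1 was higher at 14 of 25 and H3.3 at 8 of 24.

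Lef1 had both directions for most marks, and over all comparisons 58 sites of its window had their nearest coding start at Hadh. At 3 w.p.i. H3.3 was higher at 7 of 17 sites (41.2%, background 59.4%) and Pu.1 at 8 of 14 (57.1%, background 56.0%). H3K27ac was higher at 6 of 9 (66.7%, background 41.5%) and H3K9me3 at 3 of 3 (background 78.9%). H3K27ac beyond the end of the gene, chr3:131228951-131230500, was 27.13 and 39.08 in Daxx-KO against 2.15 and 2.21 in WT (3.92), and lies nearer to the start of Hadh, a fatty-acid oxidation enzyme. In the distal introns, H3K9me3 at chr3:131212001-131213150 was 30.23 and 16.67 against 3.5 and 3.48 (2.75). At 24 w.p.i. H3K27ac was higher at 9 of 21 sites (42.9%, background 42.5%). The leading site, chr3:131156151-131158400, was lower in Daxx-KO at 74.93 and 84.89 against 291.55 and 196.18 (-1.61).

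Around a start inside Lef1, marks moved apart at 24 w.p.i. H3K27ac at chr3:131112701-131113800 was 13.49 and 11.71 in Daxx-KO against 60.32 and 65.66 in WT (-2.32), whereas Pu.1 at chr3:131112751-131113450 was 61.35 and 65.82 against 1.44 and 6.32 (4.03). H3K9me3 at chr3:131111551-131112150 was 0 and 14.59 against 52.85 and 35.61 (-2.60). The highest Pu.1 average in Daxx-KO, at chr3:131171501-131172650, was 180.63 and 236.12 against 25.91 and 47.36 (2.51), with Pu.1 higher at 8 of 19 sites. H3.3, higher at 14 of 22, was nearly lost at chr3:131140001-131141200, 4.42 and 0 against 101.47 and 188.02 (-6.03). H3K27me3 was higher at 14 of 27, from small differences such as 427.57 and 434.22 against 375.31 and 404.08 at chr3:131104701-131105350 (0.14) to 104.5 and 95.67 against 53.22 and 25.7 at chr3:131183801-131185150 (1.34). H3K9me3 was higher at 7 of 12 (58.3%, background 48.1%). The shares for Pu.1, H3.3 and H3K27me3 were 42.1%, 63.6% and 51.9%, with backgrounds of 48.2%, 52.6% and 41.2%.

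Loss of Pu.1 together with Daxx was compared with WT and with Daxx-KO at 8 w.p.i. H3K27me3 in DKO was lower than in WT at 31 of 42 sites of these genes, higher at 11 (26.2%, background 56.1%), and higher than in Daxx-KO at 20 of 27 (74.1%, background 65.3%). Sites against WT came from Lef1 (3 of 23 higher), Bcl11b (6 of 16) and the Cd3 cluster (2 of 3), while Notch1, Tcf7 and Tox had no listed site. At Lef1, chr3:131202751-131205000 had 142.64, 125.77 and 167.8 in DKO against 300.01, 273.56 and 305.18 in WT (-1.01). The DKO libraries were all below the WT libraries. In the comparison with Daxx-KO, which shares the DKO libraries, the overlapping site chr3:131203601-131204500, picked after its values were seen, had 53.99, 51.26 and 49.63 in DKO against 128.49, 93.47 and 71.73 in Daxx-KO (-0.92).

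**Figure D5:**
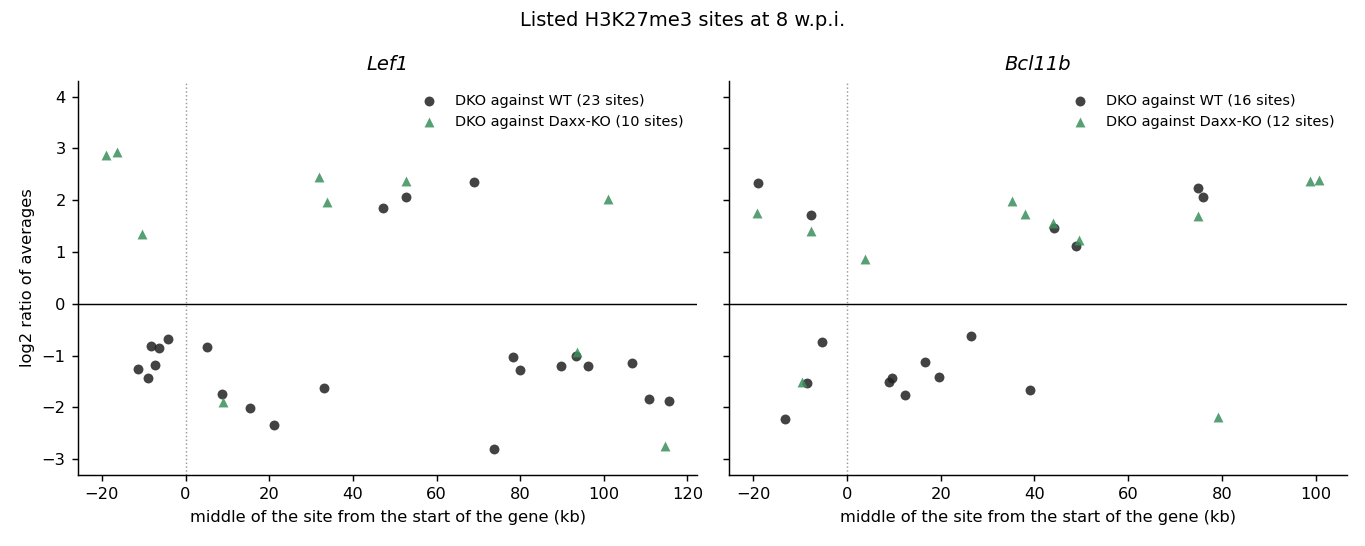
Log2 ratio of the group averages at each listed H3K27me3 site at 8 w.p.i. against the distance of its middle from the start of Lef1 (left) or Bcl11b (right), circles for DKO against WT and triangles for DKO against Daxx-KO, which share the DKO libraries. At Lef1 20 of 23 circles lie below 0 and 7 of 10 triangles above it.

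At Bcl11b the DKO values were lower than WT at the site with the highest count, chr12:108008351-108009400, with 107.55, 86.46 and 78.45 against 125.95, 192.94 and 135.26 (-0.74). Against Daxx-KO, H3K27me3 was higher in DKO at 10 of 12 Bcl11b sites and at 7 of 10 Lef1 sites. In the Cd3 cluster DKO exceeded WT at chr9:44971801-44973200 in Cd3g, with 54.34, 68.12 and 56.66 against 20.99, 22.65 and 20.12 (1.49). At the end of Cd3d, chr9:44986151-44987250, DKO had 8.79, 14.07 and 0 against 79.07, 28.26 and 14.48 in Daxx-KO (-2.41), and beyond Cd3e, chr9:44997701-44998600, DKO had 66.55, 44.23 and 34.74 against 0, 16.3 and 15.79 (2.18).

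H3K9me3 in DKO had few sites at these genes: 1 against WT, the Tox site above (higher, background 81.4%), and 6 against Daxx-KO, of which 1 was higher (16.7%, background 73.4%). The 5 lower sites were all at Bcl11b. At its last exon, chr12:107916151-107917150, also picked after its values were seen, DKO had 0, 0 and 11.66 against 20.84, 59.89 and 18.45 in Daxx-KO (-3.09). The DKO values of 0 came from libraries with a mean of 0.69 and 0.2 reads per window, beside 3.29 in the third, so that lower H3K9me3 and lower depth cannot be told apart here. The Daxx-KO libraries are those that were compared with WT.

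Overlapping sites of different antibodies were compared by direction. Antibodies used on the same animals are not independent in this. At 3 w.p.i. 33 of 40 overlapping pairs of H3.3 and Pu.1 sites at these genes had the same direction (82.5%), where this held for 77.8% of such pairs in all. With pairs up to 1 kb apart included, 57 of 76 had it (75.0%). H3.3 and H3K27ac had the same direction in 2 of 10 pairs (20.0%, all pairs 45.1%). These pairs were all at Notch1 and Tcf7, where most H3.3 sites were higher and most H3K27ac sites lower. The Daxx-KO animals also differed between these antibodies. Pu.1 and H3K27ac had the same direction in 4 of 9 pairs (44.4%, all pairs 45.2%). At 24 w.p.i. H3.3 and Pu.1 had the same direction in 16 of 34 pairs (47.1%, all pairs 50.5%), and H3K27ac and H3K27me3 in 19 of 45 (42.2%, all pairs 47.1%). Between 3 and 24 w.p.i. the direction was the same at 21 of 34 H3.3 pairs (61.8%, all pairs 51.2%) and 14 of 29 Pu.1 pairs (48.3%, all pairs 48.1%). It was the same at 18 of 29 H3K27ac pairs (62.1%, all pairs 59.8%) and 3 of 4 H3K9me3 pairs (75.0%, all pairs 56.8%). Within 1 kb the counts were 38 of 61 for H3.3, 27 of 68 for Pu.1 and 34 of 63 for H3K27ac.

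Among 29 other T-lineage genes, taken as a list with earlier results known, H3K27ac at 3 w.p.i. was higher at 69 of 247 sites (27.9%, background 41.5%), with 20 genes mostly lower and 6 mostly higher. Genes of receptor signalling such as Lck, Zap70 and Lat gave 18 of 102 and the co-receptors and surface genes such as Cd4, Cd8a and Il7r gave 15 of 51, whereas Rag1 and Rag2, the recombinase genes, gave 8 of 8. At 24 w.p.i. H3K27ac was higher at 194 of 493 sites of the list (39.4%, background 42.5%), and all 9 co-receptor and surface genes were mostly lower. H3K27me3 at 24 w.p.i. was higher at 79 of 245 (32.2%, background 41.2%), with 20 genes mostly lower and 4 mostly higher. The Notch target genes Hes1, Dtx1 and Nrarp were mostly lower for H3K27me3 at 24 w.p.i., with 14 of 49 sites higher. H3.3 was higher at 188 of 272 sites of the list at 3 w.p.i. (69.1%, background 59.4%) and 197 of 375 at 24 w.p.i. (52.5%, background 52.6%). Pu.1 was higher at 184 of 305 (60.3%, background 56.0%) and 197 of 416 (47.4%, background 48.2%). H3K9me3 was higher at 19 of 28 at 3 w.p.i. (67.9%), below the background of 78.9%, and at 94 of 145 at 24 w.p.i. (64.8%), above the background of 48.1%.

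Marker genes of HSPCs and of other blood lineages were counted in the same tables. Lineage depletion and c-Kit selection should remove mature B cells, neutrophils, NK cells and red cells, while progenitors of these lineages can stay. For H3K27ac at 3 w.p.i., where 41.5% of all sites were higher, the share of higher sites was 116 of 151 at HSPC markers (76.8%), 33 of 50 at B-lineage markers (66%), 29 of 45 at neutrophil markers (64.4%), 9 of 21 at NK and innate lymphoid markers (42.9%, near the background) and 6 of 25 at erythroid markers (24.0%). At 24 w.p.i., with a background of 42.5%, higher sites numbered 99 of 176, 44 of 90, 91 of 107, 14 of 32 and 9 of 35 in the order HSPC, B-lineage, neutrophil, NK and erythroid, and all 7 neutrophil genes, such as S100a8, Ltf and Mpo, were mostly higher. For H3K27me3 at 24 w.p.i. (background 41.2%) 29 of 78 HSPC, 55 of 111 B-lineage, 11 of 36 neutrophil, 3 of 21 NK and 17 of 32 erythroid sites were higher. A level per gene cannot be given, because unlisted regions carry no count, and the part of a different mixture of cells in the values at the T-lineage genes was not tested.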

How the data were processed

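CUT&Tag libraries of mouse HSPCs were compared at 8 genes. Per the submitters' processing notes and the file headers, the authors used CASAVA 1.8.4, cutadapt 1.13, STAR 2.5.3, bedtools and diffReps 1.55.6 on mm10, the last with 600-bp windows, steps of 50 bp, fragments of 100 bp, a negative binomial test and a window p-value of 0.0001. The deposited tables hold one normalized count per library and site, reads divided by a constant per library. The deposited adjusted p-value served only as a filter in an alternative. Columns of the authors' own comparisons (direction, log2 fold change, p) were not used. The 24 w.p.i. tables hold no X or Y sites. Coordinates are 1-based.

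From these, averages, log2 ratios and counts by direction were computed with Python 3.11.15, numpy 2.4.6, scipy 1.17.1 and pysam 0.24.0, and the functions were tested on simulated data. No test was run, because only sites past the authors' test are listed. The members and lists were chosen with earlier results of these data known. Sites named in the text followed a rule (567 sites: those within 1000 bp of an annotated start of a member, the site with the highest average per gene, antibody and time, and those that overlap a site of another antibody at the same time or of the same antibody at another time; repeats of a pattern were left out), apart from 3 named as picked after their values were seen. No 2 libraries held identical values. Replicates are separate samples per the labels. GC was read at every 20th site. Wilson intervals cover counting error only, and neighbouring sites are not independent. Altogether 1 table and 8 DKO libraries of 24 w.p.i. were not analysed here. Alternatives were gene bodies alone, an adjusted p under 0.05, an average of at least 20, merging within 1000 bp, a pseudocount of 1, other overlap rules and each library left out. The promoters of Tcf7, Cd3e, Bcl11b and Lef1 were read and are not printed, and 1 further sequence is not reported here.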

Additional observations from a re-analysis of the deposited data

Results flagged for a closer look

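Overlapping sites whose Daxx-KO and WT libraries lay apart in opposite directions at 2 times are given here. The difference between the times was not tested, and groups of 2 or 3 libraries were not screened for single outlying values. Among overlapping sites of the same antibody at 3 and 24 w.p.i., 13 of 34 H3.3 pairs and 14 of 29 Pu.1 pairs were such. For H3K27ac it was 10 of 29 and for H3K9me3 1 of 4. Between 3 and 8 w.p.i. H3K9me3 had 1 of 3, and between 8 and 24 w.p.i. it had 4 of 10. Over all listed sites, 51.2% of H3.3, 48.1% of Pu.1 and 59.8% of H3K27ac pairs had the same direction. At these genes the shares were 61.8%, 48.3% and 62.1%. Opposite directions were thus no more frequent here than over all sites for these antibodies.

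At Notch1 the log2 ratio of H3.3 in the coding exons near chr2:26470951 went from 1.03 at 3 w.p.i. to -2.84 at 24 w.p.i., a difference of -3.87. Intronic Pu.1 at Notch1 went from 1.52 to -1.82 (-3.34), and Pu.1 in the Tcf7 intron from 1.54 to -4.17 (-5.71). H3K27ac at Notch1 went from -1.71 to 0.42 at one site (2.14) and from 2.33 to -0.81 at another (-3.14). At the end of Cd3d it went from -1.05 to 0.82 (1.87).

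H3K9me3 over the last exon of Bcl11b was at -3.53 at 3 w.p.i. and 2.33 at 8 w.p.i., a difference of 5.86, and went on to -0.61 at 24 w.p.i. (-2.94). The 3 w.p.i. site also overlapped one at 0.72 in the adjoining intron at 24 w.p.i. (4.25). At Notch1, H3K9me3 went from -4.49 at 8 w.p.i. to 4.21 at 24 w.p.i. (8.7). The Daxx-KO counts at 8 w.p.i. and the WT counts at 24 w.p.i. were very low there, so that the size of this difference is uncertain.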

How the results depend on the processing

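Shares of higher sites moved by less than their counting interval in 148 of 150 alternatives. Requiring an average of at least 20 raised H3K9me3 in Daxx-KO at 8 w.p.i. to 100% of 9 sites and lowered H3K27me3 in DKO against WT to 10.3% of 29 sites. Counting pairs within 1 kb instead of by overlap gave 198 pairs of the same antibody at 3 and 24 w.p.i. (96 by overlap), 76 of H3.3 and Pu.1 at 3 w.p.i. (40, or 26 where at least 50% of the shorter site had to overlap, with 75.0% and 88.5% in the same direction against 82.5% by overlap) and 96 of H3K27ac and H3K27me3 at 24 w.p.i. (45). The ratio of H3K27me3 at chr11:52281101-52281850 in Tcf7 ran from -0.548 to 0.096 with single libraries left out, and turned positive without WT replicate 2. With each alternative of the 95 site ratios counted separately, 12 others moved the ratio by more than the spread between replicates and 470 did not. Leaving out a library moves a ratio by an amount tied to that spread, so that the 470 are no sign of stability. Directions kept with a library left out mostly follow from groups that do not overlap and are no sign of stability. The alternative that kept 752 sites nearest a member start was chosen after seeing the data. No paired analysis was possible because the genotypes came from different animals, so that a replicate number pairs no libraries between them, and because no test was run. The effect of depth on the values was not tested.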
